A study of Mus musculus with 32 samples.

Results

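The genes described here are the histone genes of the mouse and Slbp, the gene of the stem-loop binding protein that handles histone mRNA. They were taken by symbol from the authors' table: every gene named Hist1h to Hist4h, H1f, H2af or H3f3, together with Slbp, which gave 92 genes of 54532. By symbol, 10 were linker histone genes, 63 belonged to the replication-dependent core histone families, 13 were variant genes, 4 were pseudogenes, 1 was the antisense gene H3f3aos and 1 was Slbp. The annotation also marks H3f3c and H2afy3, classed here as variants, and Hist1h2aj and Hist1h2al, classed as core, as pseudogenes. Their RNA was measured in 32 libraries, each made from a single mouse egg or a single 2-cell embryo with SMART-seq v4, a kit that primes cDNA on poly(A) tails and does not mark the strand. Values are FPKM, which set the reads of a gene against its length and against the total of the library.

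The libraries came from 3 metaphase II eggs labelled WT, 3 eggs labelled Trp53 KO, 8 WT and 6 Trp53 MZ-KO early 2-cell embryos, and 6 WT and 6 Trp53 MZ-KO late 2-cell embryos. MZ-KO means maternal and zygotic knockout: mother and father were both Trp53 KO animals, whose allele lacks exons 2 to 10 of Trp53 after recombination by the germline driver Ddx4::Cre. WT embryos came from Trp53 flox/flox animals, so the controls also carried the floxed allele, on a background labelled as mixed Bl6/C57. For every group, eggs included, the ovulation hormone hCG (5 units) was given 48 h after the hormone PMSG. Zygotes were collected 24 h after hCG and cultured in KSOM medium. Early embryos were taken at 28 to 32 h and late embryos at 48 h. The number of females behind each group is not stated, so the p-values below measure the spread between single eggs or embryos.

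In the nucleosome, DNA is wound around H2A, H2B, H3 and H4, and a linker histone (H1) sits where the DNA enters and leaves. The core histones used in S phase come from clustered genes whose mRNA ends in a stem-loop bound by SLBP and not in a poly(A) tail. Variants such as H2A.Z, H2A.X and H3.3 come from genes outside the main clusters, mostly with poly(A) tails, and are laid down throughout the cell cycle. The egg holds its own linker histone, H1FOO, and a store of maternal RNA that is lost after fertilization while the embryo's genome becomes active during the 2-cell stage. A library primed on poly(A) sees only those core histone transcripts that carry a tail or an internal run of A, so a value for a stem-loop gene is not the level of its mRNA as a whole.

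The libraries rested on 7.21 to 27.6 M (mega) reads (median 18.3 M), a depth inferred from the low FPKM values and not reported. In them 6088 to 9745 genes reached FPKM 1. Trp53 itself separated the labels only at the early stage, with 2.60 to 9.29 FPKM in WT and 0.311 to 1.11 in MZ-KO embryos. In eggs it was at 7.86 ± 2.13 in WT and 8.19 ± 1.75 in KO (SD, n = 3 each), and in late embryos at 3.24 ± 2.31 and 2.82 ± 1.38 (SD, n = 6 each). The gene-level value includes sequence outside the deleted exons and is a limited check. Why it separated the labels at the early stage alone was not tested. It gives no support to the labels of eggs and late embryos, and groups are called here by their labels. Egg markers (Mos, Gdf9, Zp3, Bmp15) summed to 876 to 1505 FPKM in WT eggs and 41 to 54.5 in WT late embryos. The 4 markers of the 2-cell embryo (Zscan4c, Zscan4d, Duxf3, Zfp352) summed to at most 1.36 in eggs and at least 7.01 from the early stage on. Of these, Duxf3 was near 0 again in late embryos, with means of 0.008 in WT and 0.056 in MZ-KO. Of 8 cumulus and granulosa cell markers, none averaged FPKM 1 in eggs or early embryos, and in late embryos only Amhr2 did (7.70 in WT and 5.79 in MZ-KO). Of 4 sperm markers only Prm1 averaged FPKM 1 or more, in late embryos alone (15.5 and 8.80). The part of these markers in the stage differences below was not tested.

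Library 1 of the late MZ-KO embryos stood apart. It held the group's highest value of H1foo (34.1 FPKM), Slbp (30.8) and Hist1h2aa (6.46), which were abundant in eggs, and of Hist2h2aa1 (11.5) and Hist2h2aa2 (12), which were highest in early embryos. Of the 4 egg markers, Mos (8.28) and Bmp15 (54.7) were the group's highest there, while Gdf9 (19.5) and Zp3 (12.4) lay below the group means of 20.1 and 17.3. Late MZ-KO results are therefore also given without it where they move.

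Most histone genes had low FPKM on the deposited scale. Of the 92 members, 5 were listed at 0 in all libraries, 41 stayed below a mean of FPKM 1 in every group, and 51 reached it in at least 1 group. Those 51 were 5 of the 10 linker genes, 35 of the 63 core genes, 8 of the 13 variant genes, 2 of the 4 pseudogenes and Slbp. Deposited FPKM counts introns in the gene length, so a gene with long introns stands low. H2afy averaged 0.114 FPKM in WT eggs with 104 to 198 reads by the inferred depth, and 1.05 when scaled to exon length. The 23 members described with values below are those with a mean of FPKM 5 or more in a group, and they include all that were called in a genotype comparison; Hist1h2ah and Hist1h2ba were added after their values were seen, as partners of head-to-head pairs. A gene was tested where it reached FPKM 1 in as many libraries as the smaller group holds, and called at an adjusted p below 0.05 (limma, Benjamini-Hochberg over all genes tested). Differences are on the log2(FPKM + 1) scale, which understates the change of low genes.

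Over the 2-cell stage H1foo, Slbp and Hist1h2aa, abundant in eggs, fell, and H2afz, H2afj, H2afv and H3f3a rose. From egg to early embryo in WT, 12 of 36 members tested rose and 3 fell, against a background of 51.3% of 8619 genes called, 30.4% higher and 20.9% lower. From early to late embryo in WT, 16 of 37 rose and 17 fell (background 85% of 9319 genes called, 46.6% higher and 38.4% lower). The members' median difference at this second step was -0.37, where that of all genes tested was 0.26. In the knockout series, 13 of 34 rose and 5 fell from egg to early embryo (background 49.2% of 8305 genes called, 29.2% higher and 20% lower), and 12 of 29 rose and 13 fell from early to late (background 81.7% of 8944, 48.3% higher and 33.3% lower). The share of members called was thus 41.7% and 89.2% in the WT steps and 52.9% and 86.2% in the knockout steps, near the background in each.

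By class, the early to late step went in different directions. Of all genes tested at this step, 46.6% rose and 38.4% fell in WT, and 48.3% rose and 33.3% fell in MZ-KO. Of the linker genes, 3 of 4 tested fell in WT and 3 of 3 in MZ-KO. Of the variant genes, 6 of 7 rose in WT, and 5 rose and 1 fell in MZ-KO. H3f3c, annotated as a pseudogene, is among those that rose in both. Core genes were split, with 8 higher and 13 lower of 23 in WT, and 5 higher and 8 lower of 16 in MZ-KO, and Slbp fell in both. Some members passed the filter through only 1 of the groups compared, which favours a difference: 9 of 36 and 5 of 34 in the egg to early steps, of which 4 and 4 were called, and 4 of 37 and 2 of 29 in the early to late steps, all of them called. The egg to early counts rested on single eggs, since 8 members were called in WT without egg 2 and 10 in KO without egg 3. With median-ratio scaling, which shifted the median of all genes by 0.174 and 0.284, the WT egg to early split became 8 higher and 4 lower, and the MZ-KO early to late split 8 higher and 14 lower.

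**Figure D1:**
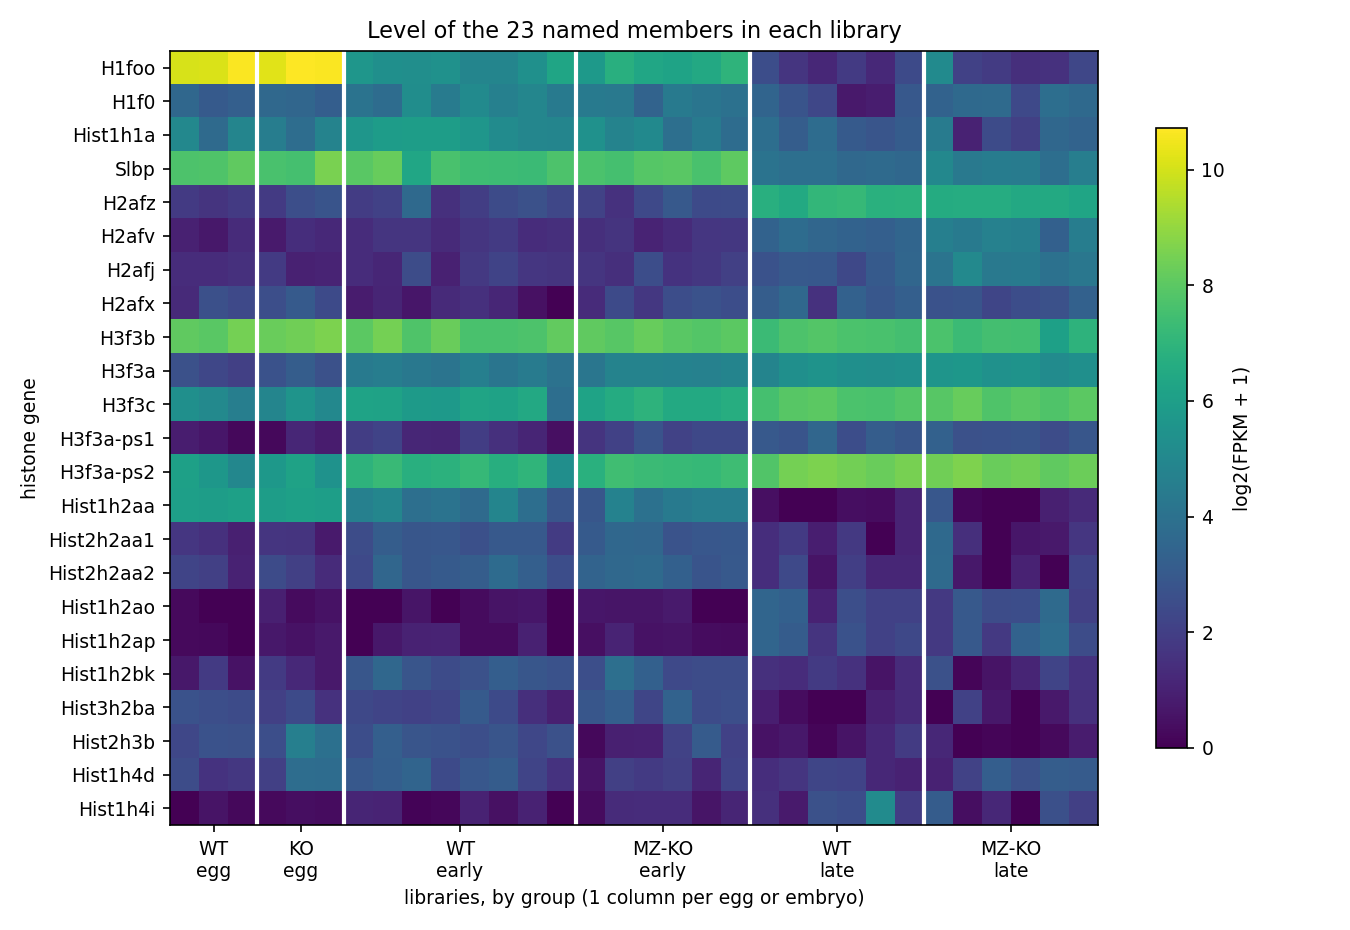
The heatmap shows log2(FPKM + 1) of the 23 named members (vertical) in the 32 libraries (horizontal), ordered by group from egg to late 2-cell embryo. H1foo, Slbp and Hist1h2aa are high in eggs and low in late embryos, while H2afz, H2afj, H2afv and Hist1h2ao are highest in the late groups.

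H1foo, the linker histone gene of the oocyte (chr6:115944938-115950236, plus strand, mm10), had the highest FPKM of all members in eggs and lost nearly all of it by the late 2-cell stage. The 3 WT eggs had 1062, 1120 and 1622 FPKM and the 3 KO eggs 1203, 1617 and 1682. The 8 WT early embryos ranged from 28.2 to 76.8 (median 40.01) and the 6 MZ-KO early embryos from 55.1 to 123 (median 83.6). Late embryos held 1.29 to 4.73 (median 2.30) in WT and 1.72 to 34.1 (median 2.94) in MZ-KO, the last being library 1. All eggs lay above all early embryos, and all early embryos above all late embryos of the same label.

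In WT the mean of H1foo was 29.7-fold lower in early embryos than in eggs and a further 15.7-fold lower in late embryos. These differences were -4.90 (SE 0.27, adjusted p = 1.87e-07) and -3.58 (SE 0.26, adjusted p = 2.23e-09). In the knockout series they were -4.11 (SE 0.24, adjusted p = 3.37e-06) and -4.03 (SE 0.52, adjusted p = 5.83e-06), and the latter was -4.58 without library 1. FPKM is relative to the reads of a library, so less RNA of a gene and more RNA of other genes cannot be told apart.

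Hist1h1a, which encodes the clustered linker subtype H1.1, and H1f0, the replication-independent subtype H1.0, peaked at the early stage in WT. Hist1h1a averaged 23.9 ± 10.4 FPKM in WT eggs (SD, n = 3), 46.5 ± 14 in WT early embryos (SD, n = 8) and 9.25 ± 3.20 in WT late embryos (SD, n = 6). It rose by 0.98 (SE 0.33, adjusted p = 0.0258) and then fell by 2.21 (SE 0.24, adjusted p = 2.52e-07); the rise was lost without egg 2 (adjusted p = 0.177) and with no filter, median-ratio scaling or a fit over all libraries (0.0809 to 0.0899). H1f0 averaged 8.93 ± 1.95, 24.4 ± 8.46 and 4.65 ± 3.60 in the same groups, a rise of 1.30 (SE 0.29, adjusted p = 0.00299) and a fall of 2.41 (SE 0.41, adjusted p = 4.68e-05). No WT egg reached the lowest WT early embryo for H1f0, and for Hist1h1a the ranges overlapped.

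In early MZ-KO embryos the means of both genes were lower than in WT, and neither difference passed the test. Hist1h1a ranged from 12.9 to 41.8 FPKM (median 23.7) in MZ-KO and from 28.1 to 61.0 (median 48.5) in WT early embryos, a difference of -0.93 (95% interval -1.52 to -0.35, adjusted p = 0.0704). H1f0 ranged from 9.63 to 20.4 in MZ-KO and from 12.8 to 36.6 in WT, a difference of -0.48 (95% interval -0.98 to 0.02, adjusted p = 0.254). All 6 MZ-KO embryos lay below the WT mean for both genes. H1foo differed in the other direction and passed, as given with the genotype comparisons. Of the other 7 linker genes only Hist1h1b and H1fx reached a mean of FPKM 1 in a group.

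To compare the levels of linker genes with each other, each value was rescaled from the gene's genomic span, which the authors used as length, to its exon length. On that scale H1foo made up 99.4 ± 0.26% of the summed linker level in WT eggs (SD, n = 3), 70.6 ± 8.83% in WT early embryos (SD, n = 8) and 42.2 ± 11.6% in WT late embryos (SD, n = 6). Hist1h1a took 0.433%, 18.5% and 35.6% of the sum in these groups. In early MZ-KO embryos H1foo held 89.1 ± 5.12% and Hist1h1a 6.35 ± 4.08% (SD, n = 6 each). On the deposited scale, where the introns of H1foo count in its length, H1foo held 97.4%, 36.7% and 14.9% in the WT groups, so its rank below Hist1h1a in early embryos depends on the scale.

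**Figure D2:**
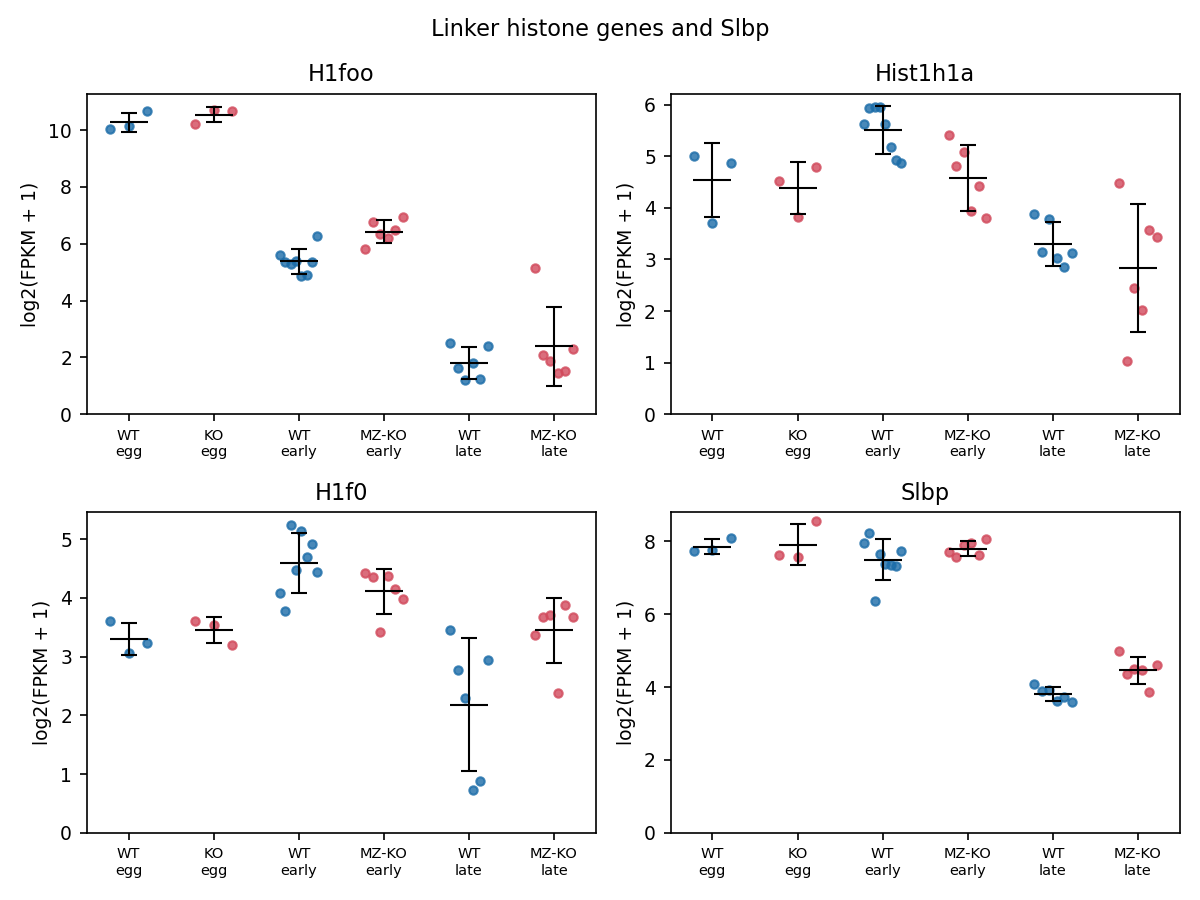
Each dot is log2(FPKM + 1) of 1 egg or embryo for the linker genes and Slbp, by group, and black bars give the mean ± SD. H1foo drops at both steps, Hist1h1a and H1f0 are highest in WT early embryos, and Slbp drops only at the second step; the high late MZ-KO dot of H1foo at 34.1 FPKM is library 1.

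Slbp (chr5:33634952-33652574, minus strand) kept its egg level into the early embryo and then fell. WT eggs had 210, 214 and 270 FPKM and KO eggs 187, 196 and 375. Early embryos ranged from 80.4 to 300.2 in WT (median 182) and from 188 to 265 in MZ-KO (median 222). Late embryos ranged from 11 to 15.9 in WT (median 13) and from 13.5 to 30.8 in MZ-KO (median 21.3). Eggs and early embryos overlapped, and no late embryo came near either.

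The WT mean was 14.6-fold lower in late than in early embryos, a difference of -3.69 (SE 0.24, adjusted p = 6.09e-10). In MZ-KO it was 10.3-fold lower, a difference of -3.34 (SE 0.18, adjusted p = 8.26e-10). Between egg and early embryo the WT difference was -0.35 (95% interval -1.04 to 0.33, adjusted p = 0.36). An annotated gene on the other strand overlaps Slbp, and reads of the pair cannot be told apart.

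Of 12 genes listed for histone mRNA 3′ processing and histone gene transcription, 11 were in the table. From egg to early embryo in WT, 3 of 8 tested rose and 3 fell, and from early to late 1 of 6 rose and 4 fell, where 51.3% and 85% of all genes were called. Lsm10, a subunit of the U7 snRNP that directs histone 3′ cleavage, rose from 5.87 to 43.4 FPKM in WT and then fell to 18.9, differences of 2.67 (SE 0.26) and -1.16 (SE 0.22) with adjusted p of 8.12e-06 and 0.000161. Its path was therefore unlike that of Slbp, which had its high level already in the egg. Npat, a coactivator of histone gene transcription, was the gene that rose at the second step, from 1.10 to 3.00 FPKM (0.94, SE 0.11, adjusted p = 7.4e-07). Casp8ap2, Cpsf2, Cpsf3 and Lsm10 fell there.

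H2afz, H2afv and H2afj, genes of H2A variants, rose from the early to the late embryo. H2afz, which encodes H2A.Z.1 (chr3:137864487-137866922, plus strand), had 2.02, 2.53 and 2.54 FPKM in WT eggs and 2.50, 4.97 and 5.90 in KO eggs. Early embryos ranged from 1.82 to 11.7 in WT (median 3.54) and from 1.93 to 6.90 in MZ-KO (median 4.25). Late embryos ranged from 88.8 to 146 in WT (median 112) and from 78.6 to 99.3 in MZ-KO (median 92.4). Every late embryo lay far above every egg and early embryo.

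The mean of H2afz rose 26-fold from early to late in WT (4.55, SE 0.27, adjusted p = 2.48e-10) and 21.9-fold in MZ-KO (4.21, SE 0.20, adjusted p = 2.96e-10). Of its exonic 50-base stretches, 69.6% also occur in other annotated genes, among them the gene Gm8203, so the authors' counting could have split its reads. H2afv, which encodes the related H2A.Z.2, was at 1.90 ± 0.388 FPKM in WT early (SD, n = 8) and at 10.1 ± 1.52 in WT late embryos (SD, n = 6), a rise in WT (1.94, SE 0.13, adjusted p = 7.16e-10) and, with 1.82 ± 0.470 and 20.4 ± 6.04 (SD, n = 6 each), in MZ-KO (2.88, SE 0.23, adjusted p = 4.35e-08). H2afv shares none of its 50-base stretches with another gene. On the exon-length scale H2afz exceeded H2afv in WT late embryos, at 56.7 ± 6.89% against 38 ± 5.86% of the sum of 6 H2A variant genes (SD, n = 6), and in MZ-KO late embryos the order was 35.3 ± 8.58% against 57.3 ± 9.64%. As deposited, H2afz was the higher of the pair in both, with 82.2% and 66.5% of the sum. The exon length of H2afz, 1776 bases, pools 7 annotated transcripts. Its longest coding transcript is shorter, with 1020 stretches of 50 bases, while H2afv has 1584 on an exon length of 1633 bases. Scaled to that transcript the share of H2afz would be higher, so the order in MZ-KO late embryos depends on the length used.

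H2afj, the gene of H2A.J (chr6:136808244-136810074, plus strand), rose at the same step in both series. The WT eggs had 1.59, 1.60 and 1.84 FPKM and the KO eggs 0.962, 1.07 and 2.51. Early embryos ranged from 1.00 to 4.70 in WT (median 2.14) and 1.71 to 4.78 in MZ-KO (median 2.25). Late embryos ranged from 4.03 to 10.7 in WT (median 6.83) and 15.2 to 31.6 in MZ-KO (median 18.7). The WT ranges of the 2 stages overlapped and the MZ-KO ranges did not.

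The rise of H2afj was 1.27 in WT (SE 0.24, adjusted p = 0.000124) and 2.54 in MZ-KO (SE 0.21, adjusted p = 6.39e-08). H2afx, the gene of H2A.X, whose protein is phosphorylated around DNA breaks (chr9:44334694-44336077, plus strand), took another course. It averaged 3.61 FPKM in WT eggs (1.44, 4.18 and 5.20) and 5.45 in KO eggs (4.26, 4.93 and 7.16). WT early embryos had 0 to 1.82 (median 0.961) and MZ-KO early embryos 1.49 to 5.44 (median 4.50). Late embryos had 1.92 to 11.4 (median 8.21) in WT and 3.77 to 8.99 (median 5.42) in MZ-KO. The WT early group was thus the low point of the 6 groups.

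In WT, H2afx fell from egg to early embryo by 1.22 (SE 0.33, adjusted p = 0.00934) and rose to the late embryo by 2.10 (SE 0.30, adjusted p = 8e-06). The fall was lost without egg 2 (adjusted p = 0.0641) or egg 3 (0.0506). In the knockout series the differences were -0.47 (adjusted p = 0.241) and 0.51 (adjusted p = 0.0754), neither past the test. H2afj and H2afx each overlap an annotated gene on the other strand, whose reads cannot be told from theirs.

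**Figure D3:**
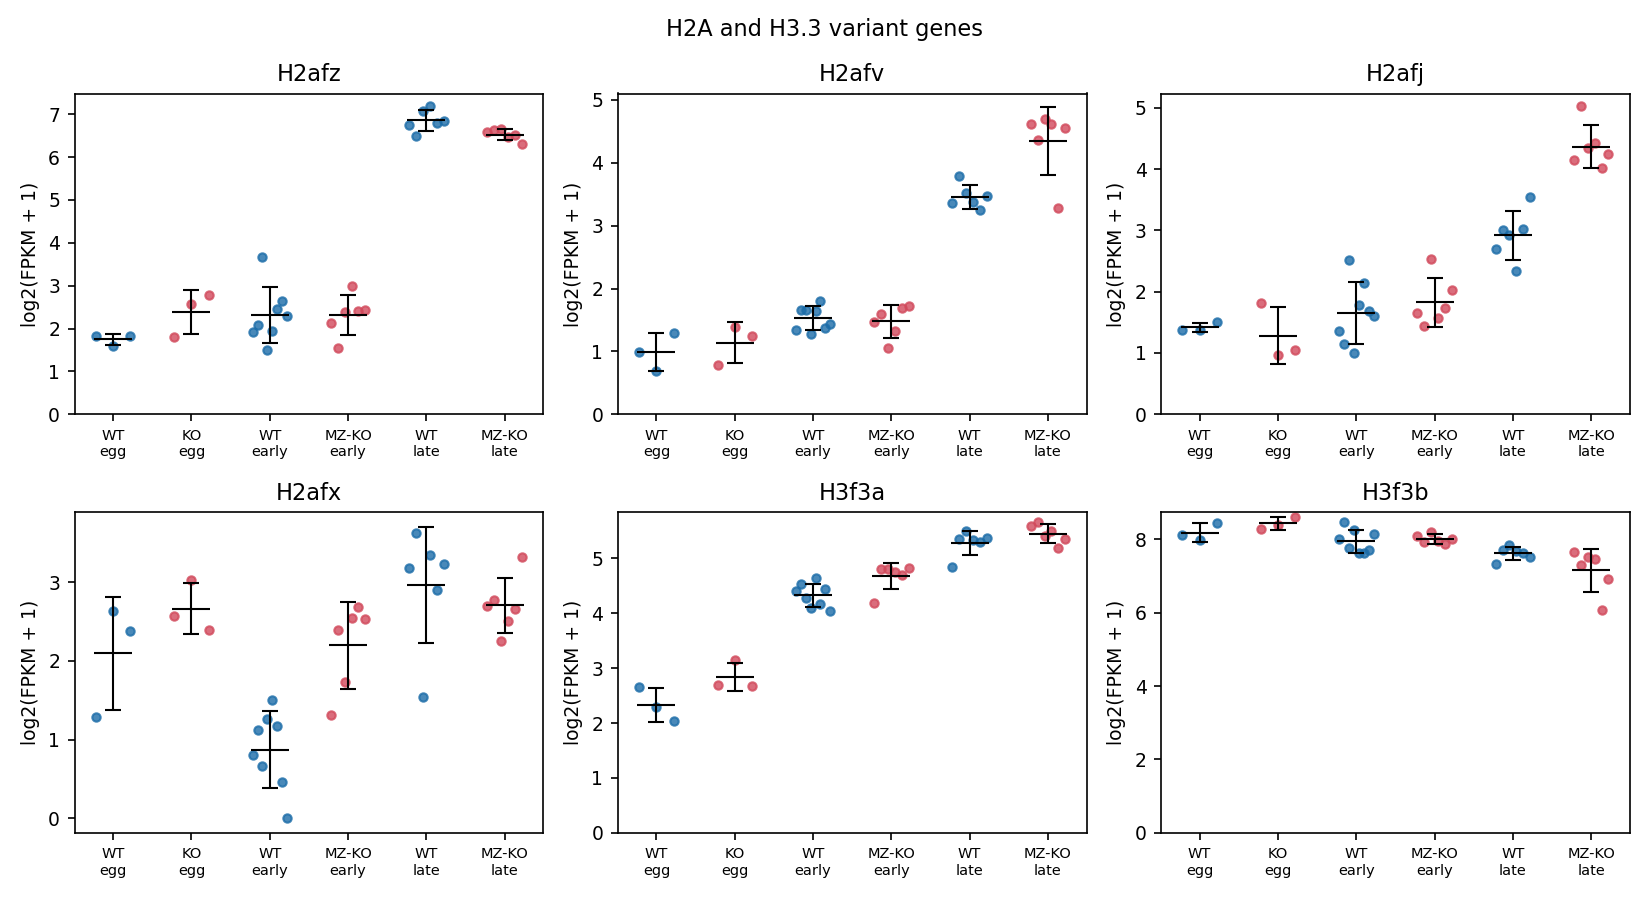
Each dot is log2(FPKM + 1) of 1 egg or embryo for the variant genes, by group, and black bars give the mean ± SD. H2afz, H2afv and H2afj are highest in late embryos, H2afj and H2afv more so in MZ-KO; H2afx is lowest in WT early embryos; H3f3b is high throughout while H3f3a climbs from 4.12 FPKM in WT eggs to 38.3 in WT late embryos.

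H3f3a and H3f3b encode the same protein, H3.3, the replication-independent H3, from separate genes. H3f3b (chr11:116021912-116027962, minus strand) held most of it, with 293 ± 52.3 FPKM in WT eggs (SD, n = 3), 252 ± 57.1 in WT early (SD, n = 8) and 197 ± 24.1 in WT late embryos (SD, n = 6). Neither WT step passed the test (-0.23, adjusted p = 0.345, and -0.33, adjusted p = 0.0649). In the knockout series H3f3b went from 346 ± 41.8 (SD, n = 3) to 258 ± 23 and 150 ± 49.5 (SD, n = 6 each). It fell by 0.42 (SE 0.12, adjusted p = 0.015) and by 0.85 (SE 0.23, adjusted p = 0.00361), the first lost without egg 3 (adjusted p = 0.0752), with no filter (0.0545) and in a fit over all libraries (0.142). The fall was not shown to differ from WT: the late minus early difference between genotypes was -0.52 (95% interval -1.09 to 0.05, adjusted p = 0.186).

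H3f3a (chr1:180800832-180813943, minus strand) rose at both steps, by 1.99 (SE 0.17, adjusted p = 3.75e-06) and 0.96 (SE 0.14, adjusted p = 1.27e-05) in WT. In the knockout series it rose by 1.84 (SE 0.18, adjusted p = 4.71e-05) and 0.77 (SE 0.15, adjusted p = 0.000273). Of the exon-length sum of both genes, H3f3a made up 2.61% in WT eggs, 12.7 ± 3.19% in WT early (SD, n = 8) and 26.3 ± 1.45% in WT late embryos (SD, n = 6). In the knockout groups its share was 3.24%, 15.2 ± 2.47% and 35.9 ± 7.48% (SD, n = 6 for the embryos). As deposited the shares were 1.44%, 7.38% and 16.2% in WT, in the same order.

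Processed copies of H3f3a rose from early to late embryo as well. H3f3c averaged 31.5, 62.8 and 221 FPKM and H3f3a-ps2 49.3, 114 and 331 across the WT groups from egg to late embryo, and H3f3a-ps1 0.509, 1.85 and 7.05. From early to late all 3 rose in both series, H3f3a-ps1 in MZ-KO not with median-ratio scaling (adjusted p = 0.126). From WT egg to early embryo H3f3c did not pass (0.86, adjusted p = 0.13), and the calls of H3f3a-ps1 and H3f3a-ps2 were lost with no filter (0.141 and 0.0777), with median-ratio scaling (0.066 and 0.0504) and without egg 2 (0.0991 and 0.0557) or egg 3 (0.185 and 0.125). These copies share 73.8%, 82.0% and 54.3% of their 50-base stretches with H3f3a or other copies. Their values are uncertain for that reason, and the part of H3f3a reads in them was not tested.

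The replication-dependent core genes carry the stem-loop that SLBP binds. The annotated transcripts were searched on the sense strand for 1 pattern of 16 letters, a stem of 6 bases with a loop of 4. Stems with other letters were not searched, and pairing was not tested. The pattern was found in 42 of the 63 core genes, in 4 linker genes and in 1 variant gene, H2afx. The form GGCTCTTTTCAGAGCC occurred in 26 of these 47 genes, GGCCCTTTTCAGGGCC in 7 and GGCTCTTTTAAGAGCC in 6. Reads were counted for the members listed below although the library was primed on poly(A). Whether those reads came from these transcripts or from overlapping or near-identical genes was not tested. The annotated transcripts of H2afx, Hist1h4i and Hist3h2ba also carry a poly(A) signal near their ends. The lines below give the site, as DNA with the stem-loop in capitals. They cover members with the highest levels or with the differences described next.
Hist1h2ao: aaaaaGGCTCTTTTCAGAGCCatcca
Hist2h2aa1: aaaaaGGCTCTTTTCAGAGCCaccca
Hist3h2ba: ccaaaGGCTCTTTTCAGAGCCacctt
Hist1h2bk: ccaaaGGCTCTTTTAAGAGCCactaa
Hist1h4d: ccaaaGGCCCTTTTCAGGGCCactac
Hist1h4i: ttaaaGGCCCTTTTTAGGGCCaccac
H2afx: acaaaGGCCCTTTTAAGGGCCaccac

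The annotated transcript ran on for more than 60 bases after the stem-loop in 25 of the 47 genes and for more than 300 in 19. After the loop 822 bases followed in H2afx, 770 in Hist1h4d and 330 in Hist1h4i, and only 31 in Hist1h2ao and 30 in Hist1h2bk. The median over core genes of the group mean was 0.140 FPKM in WT eggs for the 42 with a stem-loop found and 0.057 for the 21 with none found. It was 0.362 and 0.294 in WT early embryos, and 0.502 and 0.503 in WT late embryos. In the knockout groups it was 0.343 and 0.130, 0.444 and 0.355, and 0.342 and 0.211. The set with a stem-loop found was the lower one only in WT late embryos, where the medians were nearly equal. Only annotated transcripts were searched, and several of the 21 are short (393 bases in Hist1h2ai, 381 in Hist1h2bl). A stem-loop past such an annotated end, or with letters outside the pattern, would be missed. The split therefore does not separate genes with a stem-loop from genes without it. That most of these genes are near 0 here is a statement about poly(A)-primed reads only.

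Hist1h2aa, the gene of TH2A, an H2A form of testis and oocytes (chr13:23934462-23934851, plus strand), stood above the other core genes in eggs. No stem-loop was found in its annotated transcript, which holds only 390 bases. WT eggs had 61.3, 65.1 and 66.8 FPKM and KO eggs 61.6, 64.2 and 66.9. Early embryos had 6.04 to 28.9 (median 15.1) in WT and 6.31 to 25.9 (median 21.5) in MZ-KO. Late embryos had 0 to 1.12 in WT and 0 to 6.46 in MZ-KO, the last being library 1. The eggs of both labels spanned the same narrow range and lay above all early embryos.

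Hist1h2aa fell by 1.93 (SE 0.38, adjusted p = 0.00134) and 3.73 (SE 0.30, adjusted p = 8.7e-09) at the 2 WT steps. In the knockout series it fell by 1.83 (SE 0.37, adjusted p = 0.00276) and 3.31 (SE 0.48, adjusted p = 1.78e-05). The summed level of the other 14 Hist1 H2A genes was higher in late embryos than before, as a description with no test. In WT that sum was 1.59 ± 0.614 FPKM in eggs (SD, n = 3), 5.25 ± 3.48 in early (SD, n = 8) and 31.7 ± 17 in late embryos (SD, n = 6). In the knockout groups it was 5.88 ± 2.60 (SD, n = 3), 5.32 ± 1.64 and 26.4 ± 13.9 (SD, n = 6 each). The late embryos spread widely, from 15.0 to 55.4 in WT, yet all lay above the highest WT early embryo at 11.2.

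Of the 20 H2A core genes, 11 were tested from early to late in WT, of which 7 rose and 4 fell (background 85% called, 46.6% higher and 38.4% lower). Those that rose were Hist1h2ab, Hist1h2ah, Hist1h2ai, Hist1h2aj, Hist1h2an, Hist1h2ao and Hist1h2ap. Of these, Hist1h2ab, Hist1h2aj, Hist1h2an and Hist1h2ao, 4 of the 11 tested, passed the filter through the late group only. Their calls were favoured by the filter and are no support for a rise. Hist1h2aj, which rose, and Hist1h2al, which fell, are annotated as pseudogenes. Hist1h2ao went from 0 to 0.546 FPKM in WT early embryos to 1.06 to 10.4 (median 4.07) in late ones. Its difference of 2.16 (SE 0.31) is given as a description. Hist1h2ap went from 0 to 1.10 to a range of 2.01 to 10.4 (median 4.75), a rise of 2.00 (SE 0.28, adjusted p = 7.01e-06). The ranges of the 2 stages did not overlap for either gene, which the filter favoured for Hist1h2ao. The pair shares 403 of its 50-base stretches (of 431 in Hist1h2ao and 433 in Hist1h2ap), so reads cannot be assigned to 1 of them with certainty. In MZ-KO embryos the differences of Hist1h2ao and Hist1h2ap were 2.14 (SE 0.28) and 2.17 (SE 0.32, adjusted p = 2.35e-05 for Hist1h2ap). Hist1h2ao again passed the filter through the late group only.

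The near-identical genes Hist2h2aa1 and Hist2h2aa2, all of whose 50-base stretches occur elsewhere, peaked in the early embryo. Hist2h2aa1 averaged 1.66 ± 0.680 in WT eggs (SD, n = 3), 5.89 ± 1.69 in WT early (SD, n = 8) and 1.45 ± 0.987 FPKM in WT late embryos (SD, n = 6). It rose by 1.36 (SE 0.26, adjusted p = 0.0011) and fell by 1.57 (SE 0.27, adjusted p = 6.18e-05). Hist2h2aa2 had 2.57, 7.78 and 1.96 FPKM in these groups. In MZ-KO both rose and fell as well, and the late group's values of 11.5 and 12 belong to library 1, without which the late means were 1.03 for each.

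The other core families had few genes that rose from early to late embryo, and no difference between families was tested. The background was 46.6% higher and 38.4% lower in WT, and 48.3% and 33.3% in MZ-KO. Of 18 H2B genes, 5 were tested from early to late, of which none rose and 3 fell in WT (Hist1h2ba, Hist1h2bk and Hist3h2ba) and 4 fell in MZ-KO. Hist1h2bk had 0.424, 0.596 and 2.49 FPKM in WT eggs, 4.45 to 11 (median 6.18) in WT early and 0.482 to 2.58 (median 1.71) in WT late embryos. It rose by 1.90 (SE 0.29, adjusted p = 0.000203) and fell by 1.54 (SE 0.20, adjusted p = 3.01e-06), with no overlap of the early group with either neighbour. Of the 12 H3 genes all 3 tested fell in WT, of which the call of Hist1h3f was lost with a pseudocount of 0.1 (adjusted p = 0.0502), no filter (0.09), a fit over all libraries (0.0773) and without any of several libraries (up to 0.128). Hist2h3b was at 5.63 ± 1.34 FPKM in early (SD, n = 8) and 0.938 ± 0.942 in late embryos (SD, n = 6), a fall of 1.87 (SE 0.23, adjusted p = 1.36e-06). All of its 50-base stretches occur in other genes, among them Hist2h3c1, and Gm20628 overlaps it on the other strand. Its values are therefore uncertain. Of the 13 H4 genes 4 were tested, of which Hist1h4i rose and Hist1h4a, Hist1h4c and Hist1h4d fell. Hist1h4i averaged 8.42 in late WT embryos through library 5 (35.2 FPKM), with a median of 3.77; its rise of 1.80 (SE 0.51, adjusted p = 0.00408) was kept under the alternatives that tested it, with adjusted p up to 0.014, and at a filter of FPKM 5 it was not tested. The falls of Hist1h4a and Hist1h4c were lost under several alternatives, among them a pseudocount of 0.1 (adjusted p = 0.17 and 0.0961) and no filter (0.0883 and 0.0665). In MZ-KO embryos 1 of 3 H4 genes tested rose, Hist1h4d, a call that was lost with median-ratio scaling (adjusted p = 0.109) and without any of several libraries.

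Many H2A and H2B genes lie head to head and share the short stretch between their starts. There were 13 such pairs among the members, with 175 to 305 bases between the annotated starts. In WT the late minus early difference of the H2A gene was above 0 in 11 of the 13 and that of the H2B gene in 4. The H2A difference exceeded that of its H2B partner in 11 pairs, with medians of 1.23 and -0.05. In MZ-KO the H2A gene was above 0 in 12, the H2B gene in 1, and the H2A difference was the larger in 12, with medians of 0.89 and -0.24. The median of all genes tested was 0.26 in WT and 0.39 in MZ-KO. Of the H2B partners, only Hist1h2ba, Hist1h2bj and Hist1h2bk averaged FPKM 1 or more in WT early or late embryos. The scale holds the WT differences of the other H2B genes near 0, so their median reflects low levels. Hist1h2ac, Hist1h2ak and Hist2h2ac stayed below FPKM 1 at both WT stages too. These are counts over neighbouring genes that share sequence and libraries, and they carry no test. Every H2A gene of the pairs overlaps an annotated gene on the other strand, while the H2B partners overlap none. Reads of the 2 strands cannot be told apart, and their part in the contrast was not tested.

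**Figure D4:**
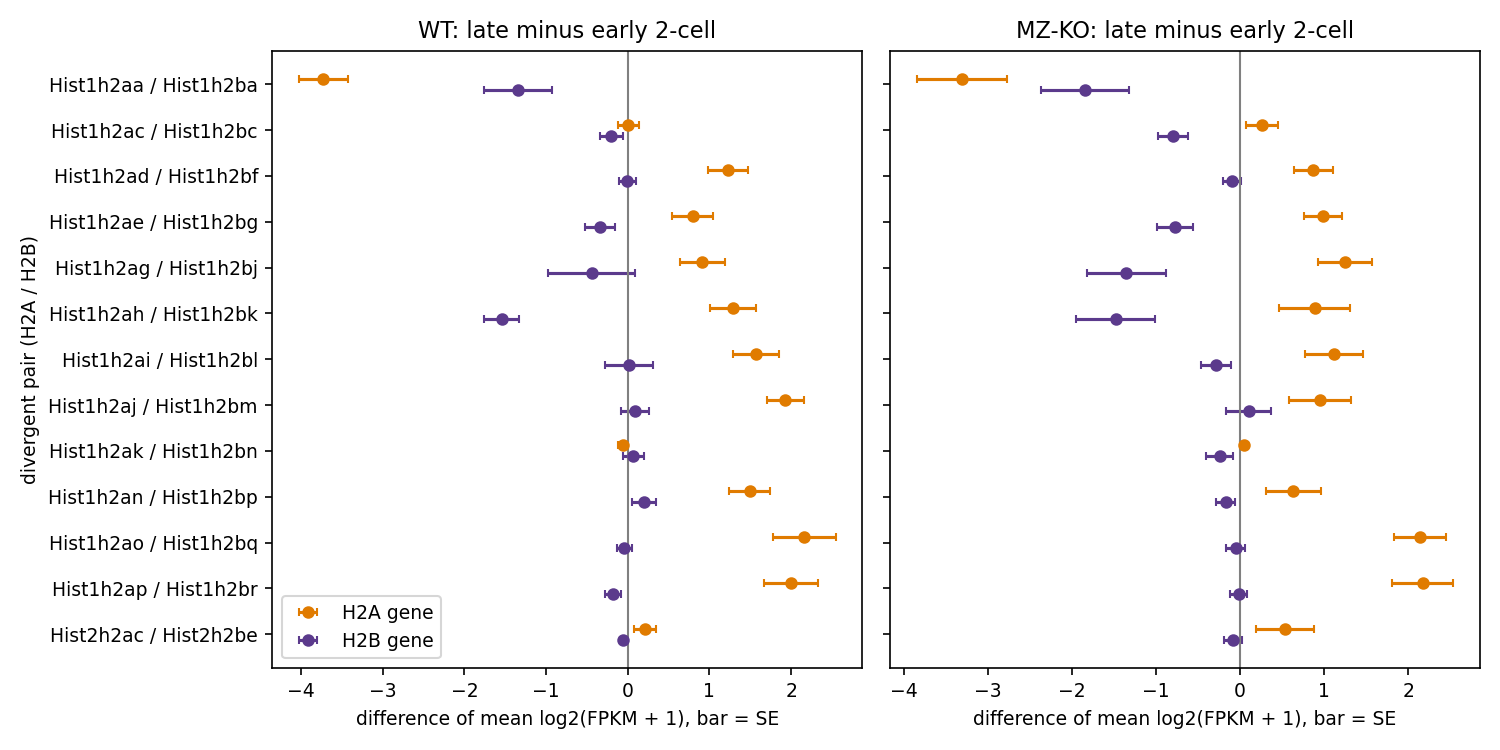
For each of the 13 head-to-head pairs the plot gives the late minus early difference on the log2(FPKM + 1) scale (horizontal, bars are ± SE) of the H2A and the H2B gene, for WT and MZ-KO. In WT the H2A gene lies to the right of its partner in 11 of the 13 pairs; Hist1h2aa with Hist1h2ba, where both are below 0, and Hist1h2ak with Hist1h2bn, where both are near 0, are the exceptions.

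The Hist1h2ah and Hist1h2bk pair shows the contrast within 301 bases. Hist1h2ah overlaps Gm44390 on the other strand. Of the 50-base stretches of Hist1h2ah and Hist1h2bk, 92.1% and 74.2% occur in other genes, so both values are uncertain. In WT Hist1h2ah went from 0.498 to 2.61 FPKM and Hist1h2bk from 6.67 to 1.65, differences of 1.29 and -1.54. The pair Hist1h2aa and Hist1h2ba fell together, by 3.73 and 1.34. The promoter of the H2A gene of each pair is printed because these pairs mark the opposite behaviours. Both are RefSeq promoters of build GRCm38.p6, from 250 bases before to 50 after the start, read 5′ to 3′ on the strand of the H2A gene. Hist1h2ah lies at chr13:22035594-22035893 (minus strand) and Hist1h2aa at chr13:23934187-23934486 (plus strand). Capitals mark CCAAT boxes (CCAAT or ATTGG), TATA boxes (TATAAA or TTTATA) and the octamer (ATTTGCAT or ATGCAAAT), searched on both strands.
Hist1h2ah: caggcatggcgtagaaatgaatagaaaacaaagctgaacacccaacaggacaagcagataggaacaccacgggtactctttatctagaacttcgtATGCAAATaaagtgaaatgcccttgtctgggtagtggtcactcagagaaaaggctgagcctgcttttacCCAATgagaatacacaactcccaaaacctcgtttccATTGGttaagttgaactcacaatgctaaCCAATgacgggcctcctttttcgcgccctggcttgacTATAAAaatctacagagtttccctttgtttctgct
Hist1h2aa: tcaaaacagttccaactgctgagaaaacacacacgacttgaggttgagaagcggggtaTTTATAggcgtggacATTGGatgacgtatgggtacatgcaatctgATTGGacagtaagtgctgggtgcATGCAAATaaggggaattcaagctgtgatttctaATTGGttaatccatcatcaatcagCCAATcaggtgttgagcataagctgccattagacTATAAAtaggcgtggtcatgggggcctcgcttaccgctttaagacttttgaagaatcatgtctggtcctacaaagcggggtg

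The Hist1h2ah window held 3 CCAAT boxes, 1 TATA box and 1 octamer, and the Hist1h2aa window 4, 2 and 1. A CCAAT box was found in all 12 H2A and all 11 H2B promoters of the pairs that had a RefSeq entry, where 37.4% of all 32851 promoters of this length held one. A TATA box was found in 8 of the 12 and 6 of the 11 (13.6% of all promoters), and an octamer in 5 and 4 (1.74% of all). Both kinds of partner thus carried the same motifs, and the windows of partners overlap. A match of letters does not show that a factor binds there.

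Between genotypes few histone genes differed, and the egg gave none. Trp53 itself did not separate the labels in eggs or in late embryos, so these comparisons rest on the labels. Of 25 members tested in eggs, 0 were called (limma, background 0.333% of 6607 genes, of which 577 had an unadjusted p below 0.05), and none was called under any alternative run. In early embryos 2 of 31 were higher in MZ-KO and none lower (background 3.28% of 7675, 2.58% higher and 0.704% lower). In late embryos 3 of 30 were higher and none lower (background 31.9% of 8772, 18.5% higher and 13.4% lower). The late share of members called was below the background, and the members' median difference was 0.01 where that of all genes was 0.08.

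The 2 members higher in early MZ-KO embryos were H1foo and H2afx, both already present in eggs. H1foo was 2.05-fold higher by the means, 87.6 ± 24.3 FPKM (SD, n = 6) against 42.7 ± 15.3 (SD, n = 8), a difference of 1.04 (95% interval 0.57 to 1.5, adjusted p = 0.0215). All 6 MZ-KO embryos lay above the WT mean, and the overlap came from WT library 8 (76.8 FPKM). That library was also the shallowest, at an inferred 7.21 M reads, and the other 7 WT embryos ended at 48.3. The call was lost without MZ-KO library 2 (adjusted p = 0.0561) or 6 (0.0596), with no filter (0.105) and in a fit over all libraries (0.103). Neither the egg difference (0.25, 95% interval -0.28 to 0.79, adjusted p = 0.788) nor the late one (0.59, adjusted p = 0.433) passed, and without late MZ-KO library 1 the late means were 2.67 in MZ-KO and 2.72 FPKM in WT.

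H2afx was 4.19-fold higher by the means, 3.85 ± 1.58 (SD, n = 6) against 0.919 ± 0.596 FPKM (SD, n = 8), a difference of 1.33 (95% interval 0.77 to 1.88, adjusted p = 0.0162). All 6 MZ-KO embryos lay above the WT mean, and 1 of them, at 1.49, fell within the WT range. The adjusted p was 0.0502 with a pseudocount of 0.1 and 0.0825 with no filter. Without MZ-KO library 1, which had the lowest H1foo and H2afx of its group, 4 members were called, H3f3a (higher) and Hist1h1a (lower) in addition.

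The 3 members higher in late MZ-KO embryos were H2afj, H2afv and Slbp. H2afj was 2.96-fold higher by the means, 20.2 ± 5.87 against 6.83 ± 2.23 FPKM (SD, n = 6 each), a difference of 1.45 (95% interval 0.97 to 1.92, adjusted p = 0.000478). The groups did not overlap, and over all alternatives the difference stayed between 1.26 and 1.57 with adjusted p up to 0.00276. H2afv was 2.03-fold higher (0.89, 95% interval 0.39 to 1.39, adjusted p = 0.0109). Of its MZ-KO embryos, 5 lay between 19.5 and 24.9 FPKM and library 5 at 8.69, within the WT range of 8.48 to 12.9. Its adjusted p stayed at or below 0.0393 over the alternatives.

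Slbp was 1.65-fold higher, 21.6 ± 5.61 against 13.1 ± 1.92 FPKM (SD, n = 6 each), a difference of 0.65 (95% interval 0.26 to 1.05, adjusted p = 0.0165), with all 6 MZ-KO embryos above the WT mean and a small overlap. Without library 1 the difference was 0.55 (adjusted p = 0.0347). With median-ratio scaling, which moved the median of all genes from 0.075 to -0.075, it was 0.46 (adjusted p = 0.0776). Under that scaling the late calls became 2 higher (H2afj and H2afv) and 2 lower (H2afz and Hist1h2an). As deposited, H2afz differed by -0.33 (95% interval -0.63 to -0.04, adjusted p = 0.0797), with 91.4 ± 7.64 in MZ-KO and 117 ± 20.4 FPKM in WT (SD, n = 6 each).

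**Figure D5:**
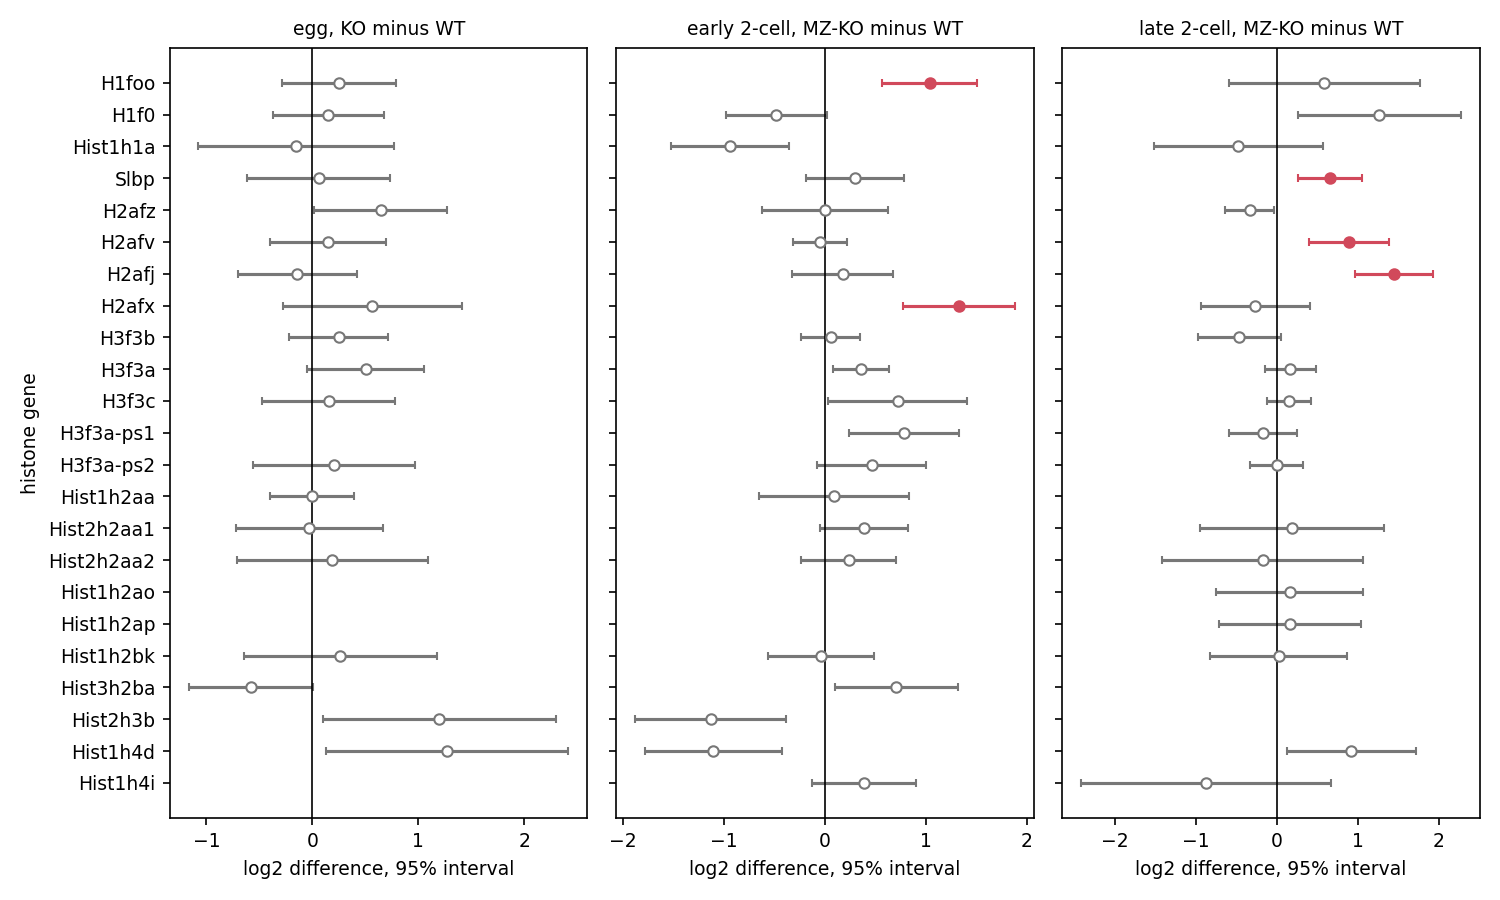
The plot gives the MZ-KO (or KO) minus WT difference on the log2(FPKM + 1) scale (horizontal, bars are 95% intervals) of the named members tested in eggs, early and late embryos; filled red points passed an adjusted p of 0.05. H1foo (1.04) and H2afx (1.33) are filled in the early panel, H2afj (1.45), H2afv (0.89) and Slbp (0.65) in the late panel, and none in eggs.

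Whether the genotype difference itself changed between the early and the late stage was tested as a contrast of 4 groups. Of 45 members tested, 4 differed upward and 2 downward (background 20.4% of 11558 genes, 12% upward and 8.4% downward). The upward ones were Hist1h4d (2.03, SE 0.50, adjusted p = 0.00526), H1f0 (1.75, SE 0.52, adjusted p = 0.0189), H2afj (1.27, SE 0.33, adjusted p = 0.00756) and H2afv (0.94, SE 0.25, adjusted p = 0.00987). The downward ones were H2afx (-1.59, SE 0.41, adjusted p = 0.00772) and the pseudogene H3f3a-ps1 (-0.95, SE 0.33, adjusted p = 0.0415).

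In Hist1h4d the difference had opposite signs at the 2 stages, and neither stage alone passed the test. WT embryos had 6.12 ± 2.65 FPKM early (SD, n = 8) and 2.23 ± 1.15 late (SD, n = 6), and MZ-KO embryos 2.31 ± 1.22 and 5.52 ± 2.85 (SD, n = 6 each). The genotype differences were -1.11 (adjusted p = 0.0657) and 0.92 (adjusted p = 0.0724). H1f0 went from 24.4 ± 8.46 to 4.65 ± 3.60 in WT and from 16.8 ± 4.08 to 10.5 ± 3.38 FPKM in MZ-KO, with genotype differences of -0.48 (adjusted p = 0.254) and 1.27 (adjusted p = 0.0529). With median-ratio scaling 3 members differed upward and 5 downward, and H2afv was no longer among them (0.67, adjusted p = 0.0633). With no filter H1f0 was lost (adjusted p = 0.0519), as was H3f3a-ps1 (0.0993, and 0.0645 with a pseudocount of 0.1).

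Among genes that handle histones, 5 differed between late embryos, a share below that of all genes. Of 23 histone chaperones and exchange factors listed, 2 of 19 tested were higher in late MZ-KO embryos and 3 lower (background 18.5% higher and 13.4% lower), and none of 18 was called in eggs or in early embryos. The list's late median was 0.15, where that of all genes was 0.08. Asf1b, a chaperone of H3 and H4, averaged 9.32 in MZ-KO and 32.9 FPKM in WT embryos, with the difference at -1.75 (SE 0.29, adjusted p = 0.000758). Nasp, which binds H3 and H4 and linker histones, averaged 13.2 and 24.1 (-0.80, SE 0.16, adjusted p = 0.00298). For both genes the groups did not overlap. Srcap, the ATPase of a complex that puts H2A.Z into nucleosomes, averaged 1.11 and 2.37 (-0.66, adjusted p = 0.0382).

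Cenpa, the H3 variant of the centromere, averaged 53.3 in MZ-KO and 27.5 FPKM in WT late embryos (0.92, SE 0.16, adjusted p = 0.0012), without overlap. Ssrp1, a subunit of the chaperone FACT, averaged 6.90 and 4.29 (0.57, SE 0.19, adjusted p = 0.0382). All of these 5 also passed the test of a changed genotype difference between early and late embryos, with Asf1b at -1.57 (adjusted p = 0.000739), Nasp at -1.07 (0.000603), Srcap at -0.73 (0.022), Cenpa at 1.04 (0.00188) and Ssrp1 at 0.75 (0.0331). Among the 3′ processing genes, 1 of 6 tested was called in early and 2 of 6 in late embryos, all higher in MZ-KO (background 2.58% and 18.5% higher). Lsm10 was higher in early MZ-KO embryos (79.9 against 43.4 FPKM, 0.87, adjusted p = 0.0402). Srrt (2.33 against 1.01, 0.71, adjusted p = 0.0182) and Casp8ap2 (10.00 against 7.05, 0.44, adjusted p = 0.0478) were higher in late ones.

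Over the WT stages the same list had 5 genes higher and 9 lower of 20 from early to late embryo, against 46.6% and 38.4% of all genes. Npm2, the nucleoplasmin of the oocyte, fell from 35 to 6.41 FPKM (-2.26, SE 0.16, adjusted p = 2.4e-09). Vps72, which binds H2A.Z, fell from 25.1 to 3.45 (-2.65, SE 0.23, adjusted p = 2.73e-08) at the step at which H2afz rose 26-fold. Anp32e, which removes H2A.Z from nucleosomes, rose from 0.869 to 4.95 (1.63, SE 0.18, adjusted p = 4.5e-07).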

How the data were processed

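Single mouse eggs and 2-cell embryos were profiled in 6 groups. The authors' deposited table gives FPKM for 54532 genes in 32 libraries, and per the submitters' processing notes TopHat2, DESeq, DESeq2 and build mm10 were used, with versions not given in the sources used here. Low values were whole reads (within 0.1 read) when gene length was the genomic span, so introns count in the deposited FPKM; levels of different genes were compared after rescaling to exon length. Genes were matched to GENCODE M 21 (54495 found, 27 symbols restored from dates). Column names give groups but no replicate number, so libraries are numbered in column order. One column header with letters in another order was matched to the late MZ-KO group through the authors' mean column, within 3.33e-06.

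Values were tested as log2(FPKM + 1) with limma 3.58.1 (trend, robust; statmod 1.5.0) in R 4.3.3, on genes at FPKM 1 or more in as many libraries as the smaller group, with Benjamini-Hochberg adjustment over all genes tested and calls below 0.05. Alternatives were a pseudocount of 0.1, no filter, a filter at FPKM 5, median-ratio scaling, a fit over all libraries and leaving out each library. The procedure was tested on simulated data. Members were named with values at a mean of FPKM 5 or more in a group or when called by genotype. The members and gene lists were chosen with earlier results of these data known. Stem-loops were searched in GENCODE transcripts and promoter motifs in RefSeq promoters (GRCm38.p6), of which 75 of 92 members had one. Tables and figures used Python 3.11.15, numpy 2.4.6, pandas 2.3.3 and matplotlib 3.10.9.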

Additional observations from a re-analysis of the deposited data

Results flagged for a closer look

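Within groups of 6 or 8 libraries, 15 of 92 gene and group combinations of the named members held a library far from the others by Dixon's ratio (16.3%). The ratio was taken on FPKM. Its nominal rate of about 1 in 20 holds for independent, normally distributed values. These combinations share libraries and similar genes, so the rate is no measure of an excess. Of the 15, 4 came from library 1 of the late MZ-KO embryos: H1foo at 34.079 FPKM, Hist1h2aa at 6.458, Hist2h2aa1 at 11.522 and Hist2h2aa2 at 11.976. Library 8 of the WT early embryos, the shallowest, gave 3: H1foo at 76.759, H3f3a-ps2 at 37.778 and H3f3c at 13.829. The others were H2afj at 31.551 in late MZ-KO library 2, H2afv at 8.69 in late MZ-KO library 5, H2afz at 11.652 in WT early library 3 and H3f3a at 17.256 in early MZ-KO library 1. H3f3a at 27.779 stood apart in WT late library 1, Hist1h2aa at 1.121 in WT late library 6, Hist1h2ap at 1.081 in early MZ-KO library 2 and Hist1h4i at 35.16 in WT late library 5.

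The MZ-KO minus WT difference changed between early and late embryos, by limma's test of the difference itself, for 6 members: H1f0 by 1.75, H2afj by 1.27, H2afv by 0.94, H2afx by -1.59, H3f3a-ps1 by -0.95 and Hist1h4d by 2.03 on the log2(FPKM + 1) scale.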

How the results depend on the processing

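No called difference of a member reversed under any alternative run. The count of members called changed with the filter, with single libraries and, in late embryos, with the set of libraries fitted. At FPKM 5 it was 1 (from 2) between genotypes in early embryos, 9 (from 15) and 13 (from 33) in the WT steps, and 11 (from 18) and 15 (from 25) in the knockout steps, where only 13 to 15 members remained to be tested. With no filter it was 0 in early embryos by genotype and 11 from KO egg to early embryo, and with a pseudocount of 0.1 it was 1 in early embryos; the cause was not tested. A fit over all libraries called 7 members (5 higher, 2 lower) in late embryos, the main 3 among them. Leaving out each library in turn gave 1 to 4 calls in early and 3 to 5 in late embryos by genotype, 8 to 20 and 29 to 34 in the WT steps, and 10 to 17 and 25 to 30 in the knockout steps. In eggs the count stayed at 0. The difference of genotype differences gave 4 to 8 calls (from 6); leaving out libraries was not run for it. The late genotype comparison without MZ-KO library 1 called 4 members, with the main 3 kept.

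No paired analysis was possible because the column names carry no replicate number, which leaves nothing to fit as a replicate block. Read depth limits the low members, and so does the genomic span used as length, which lowers the FPKM of genes with long introns. Of the 92 members, 41 stayed below a mean of FPKM 1 in every group. An absence of a call there does not show an absence of change. Levels compared between genes depend on the length scale, as given with each share. Reads of overlapping genes, near-identical copies and both strands cannot be told apart, and poly(A) priming limits what is seen of stem-loop mRNA.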
